A study of Mus musculus with 26 samples.

Results

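The genes described here encode enzymes, and core subunits of their complexes, that add or remove methyl and acetyl groups on histones. A list of 53 such genes was taken from the 24450 gene symbols of the count table, and it was split by the main role of each product. The activating side held 28 genes: 12 writers of methyl marks of active chromatin, 9 acetyltransferases and 7 erasers of repressive methyl marks. The repressive side held 25 genes: 13 writers of repressive marks, 6 demethylases of active marks and 6 deacetylases. Of the 53 genes, 48 passed the filter on low counts and were tested, 25 on the activating and 23 on the repressive side.

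Polyadenylated RNA was sequenced from pools of 10 germinal vesicle oocytes, the fully grown mouse oocytes held before meiosis resumes. The study altered Tet3, a dioxygenase that oxidizes methylated cytosine, and Dnmt3a, the DNA methyltransferase that methylates the oocyte genome, and asked what the low-complexity domain (LCD) of Tet3 does. The control group, called WT, carried the floxed domain allele without Cre (Tet3 LCDf/f, n = 6). LCD KO oocytes carried the same allele with Zp3-Cre (n = 7), and HD mutant oocytes carried the allele written Tet3 LCD HD Mutf/f with Zp3-Cre (n = 5), HD not being defined in the sources used here. Dnmt3a KO oocytes were Dnmt3af/f with Zp3-Cre (n = 2), and the double knockout, DKO, carried both floxed alleles with Zp3-Cre (n = 2). A further 2 libraries were labelled Tet3 KO (Tet3f/f with Zp3-Cre). The columns of 2 libraries labelled TKO, for loss of Tet1, Tet2 and Tet3, held the same values as those labelled Tet3 KO and were counted once. Zp3-Cre acts in growing oocytes, so an allele is intact before that stage and in all other cells. WT alone lacked the transgene, so in comparisons with WT an effect of Cre and an effect of the deletion cannot be told apart.

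Histone marks divide the genome into regions open and closed to transcription. Methylation of lysine residues by the Kmt2 and Setd1 enzymes and acetylation by the Kat enzymes, Ep300 and Crebbp mark active promoters and enhancers, whereas Polycomb complexes, Setdb1, the Suv39h and Ehmt enzymes and Prmt5 lay down marks of silent chromatin. Demethylases of the Kdm families and histone deacetylases remove them. In the growing oocyte these marks shape where DNA methylation is placed. Kdm1b, a lysine demethylase of marks of active chromatin, is needed for maternal methylation imprints, and Setd2 directs Dnmt3a to transcribed genes.

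Promoter sequence is shown for 4 genes, 2 called higher and 2 called lower in LCD KO, because the proteins altered in these oocytes act on cytosine in CG. Each line gives the 250 bases before the transcription start from RefSeq on GRCm38.p6, 5′ to 3′ on the gene's own strand, with every CG in capitals.
Kmt2a: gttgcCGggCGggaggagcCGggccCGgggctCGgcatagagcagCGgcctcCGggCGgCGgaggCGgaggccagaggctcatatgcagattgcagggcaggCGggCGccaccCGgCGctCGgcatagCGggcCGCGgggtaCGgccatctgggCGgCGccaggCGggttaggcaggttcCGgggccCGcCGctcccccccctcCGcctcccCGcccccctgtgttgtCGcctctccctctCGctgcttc
Prmt5: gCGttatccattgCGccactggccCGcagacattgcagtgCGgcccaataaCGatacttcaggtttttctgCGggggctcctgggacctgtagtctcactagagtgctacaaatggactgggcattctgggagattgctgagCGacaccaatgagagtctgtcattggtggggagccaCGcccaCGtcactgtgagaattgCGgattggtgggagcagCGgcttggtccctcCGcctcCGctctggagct
Suz12: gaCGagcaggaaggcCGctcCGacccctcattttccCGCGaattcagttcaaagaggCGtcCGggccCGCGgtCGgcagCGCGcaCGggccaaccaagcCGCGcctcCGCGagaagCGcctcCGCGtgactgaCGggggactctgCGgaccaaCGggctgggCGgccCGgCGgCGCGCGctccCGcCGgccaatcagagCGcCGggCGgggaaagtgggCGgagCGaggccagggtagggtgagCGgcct
Kdm1b: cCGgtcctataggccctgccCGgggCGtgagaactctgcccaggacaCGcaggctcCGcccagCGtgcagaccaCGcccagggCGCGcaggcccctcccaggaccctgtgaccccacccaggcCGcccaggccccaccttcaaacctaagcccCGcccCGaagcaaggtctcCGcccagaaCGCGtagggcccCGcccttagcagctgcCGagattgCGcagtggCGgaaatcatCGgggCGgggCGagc
The window of Kmt2a, at chr9:44881290-44881539 on the minus strand, held 29 CG. That of Prmt5, at chr14:54517471-54517720 on the minus strand, held 13. The windows of Suz12 (chr11:79992856-79993105, plus strand) and Kdm1b (chr13:47043249-47043498, plus strand) held 37 and 22. RefSeq windows matched 39 of the 53 genes, with 51 windows in all. Their median was 22 CG, against 6 over all 32851 promoter windows. The letters GGGCGG, searched on both strands, occurred in 62.7% of the windows of the listed genes and in 32.7% of all windows. These are descriptions of sequence, and no methylation was measured in these files.

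Total counts ran from 1838824 to 7833087 per library. The labels placed the libraries in 3 batches: WT and LCD KO in all 3, HD mutant 1 to 3 in batch 2, and Dnmt3a KO, DKO and the libraries labelled Tet3 KO in batch 3. HD mutant 4 and 5 had no stated batch, and their levels are given here but they did not enter the fit. Tet3 stood at 157 to 426 CPM in WT, where CPM is the count normalised for library size, at 43.8 to 199 CPM in LCD KO and at 57.0 and 65.6 CPM in DKO. In the libraries labelled Tet3 KO it stood at 261 and 356 CPM, within the WT range, whereas Dnmt3a stood at 142 and 104 CPM against 310 and 347 CPM in the WT libraries of that batch and 132 and 107 CPM in Dnmt3a KO. These libraries therefore go against their label. The 10 oocyte markers summed to 11499 CPM or more in every library. The 11 markers of granulosa or cumulus cells summed to 77.0 to 128 CPM, except in LCD KO 2 at 356 CPM, of which 292 CPM came from Inha. Markers of theca or stroma (7 genes) summed to at most 6.76 CPM and those of blood or immune cells (6 genes) to at most 3.69 CPM, with Hba-a1 and Hbb-bt at 0 in every group. The oocyte sum was lower in LCD KO than in WT within each batch, at 25940 to 29252 against 35134 to 40367 CPM in batch 1, 22465 and 23793 against 29671 in batch 2, and 14755 and 13861 against 16536.5 and 15931 in batch 3. The theca or stroma sum was higher in LCD KO within each batch, at 3.62 to 5.15 against 0.35 to 2.82 CPM, 5.44 and 4.39 against 3.94, and 6.62 and 4.76 against 1.88 and 2.41. The part of these markers in the results was not tested. CPM are shares of a library, so a change in RNA per oocyte does not show in them.

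In WT oocytes Kat8, Ezh2 and Eed headed the list when levels were divided by exon length, as CPM per kilobase (kb). Kat8, the acetyltransferase of histone H4, stood highest at 70.0 ± 21.96 CPM per kb (SD, n = 6). Ezh2, the catalytic subunit of Polycomb repressive complex 2, followed at 59.9 ± 20.2, and Eed, the subunit of that complex that binds its methyl mark, at 59.4 ± 15.8 CPM per kb. These 3 neighbours lay within each other's spread. Suv39h1, a writer of heterochromatin methylation, was next at 37.2 ± 13.8 CPM per kb. Kat7, Kdm1b and Setdb1 followed at 34.7 ± 7.66, 34.1 ± 5.80 and 32.6 ± 12.5 CPM per kb and did not differ beyond their spread. Suz12 and Rnf2, which belong to Polycomb repressive complexes 2 and 1, stood at 25.6 ± 5.51 and 25.4 ± 3.56 CPM per kb. Prmt5, an arginine methyltransferase, was 29th of the 53 genes at 3.02 ± 0.60 CPM per kb, and Kmt2a was next to last at 0.0239 ± 0.0194. Of the 5 genes that did not pass the filter, Kat2b was last with 0 counts in all 6 WT libraries, which allows up to 3 counts over the group. Ehmt2, Kdm4c, Kdm4d and Ring1 were the others, and none of the 5 passed 2.26 CPM in any library.

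In LCD KO against WT 10 of the 48 tested genes were called. Kmt2a, Prmt5, Hdac6 and Hdac1 rose, and Suz12, Kmt2c, Kdm1b, Kat7, Kdm3b and Kdm1a fell (edgeR quasi-likelihood test, Benjamini-Hochberg adjusted p below 0.05 over 11794 genes, 14 residual degrees of freedom). The 10 genes were 20.8% of those tested, against 18.3% of all genes, so the share of called genes was near the background. Kmt2a is among the 10 and among the 4 rises, though its call supports no count, for the reason given below. With scaling by library size only, 4 rises and 1 fall were called in place of 4 and 6: Kmt2c, Kdm1b, Kat7, Kdm3b and Kdm1a kept their sign and missed the threshold (adjusted p 0.0531 to 0.103). That scaling moved the median of all genes from -0.02 to 0.05. Rises were 4 of 48 where 8.89% of all genes rose, and falls were 6 of 48 where 9.44% fell. Both sides held rises and falls: 1 rise and 3 falls among 25 activating genes, and 3 rises and 3 falls among 23 repressive genes. The median log2 fold change was -0.14 on the activating side and -0.17 on the repressive side, and -0.02 over all genes tested. The libraries of the 2 groups were apart in each of the 3 batches in the downward direction for 6 genes, or 12.5% of those tested against 5.61% of all genes. In the upward direction this held for 1 gene, Prmt5, or 2.08% against 5.89%.

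**Figure D1:**
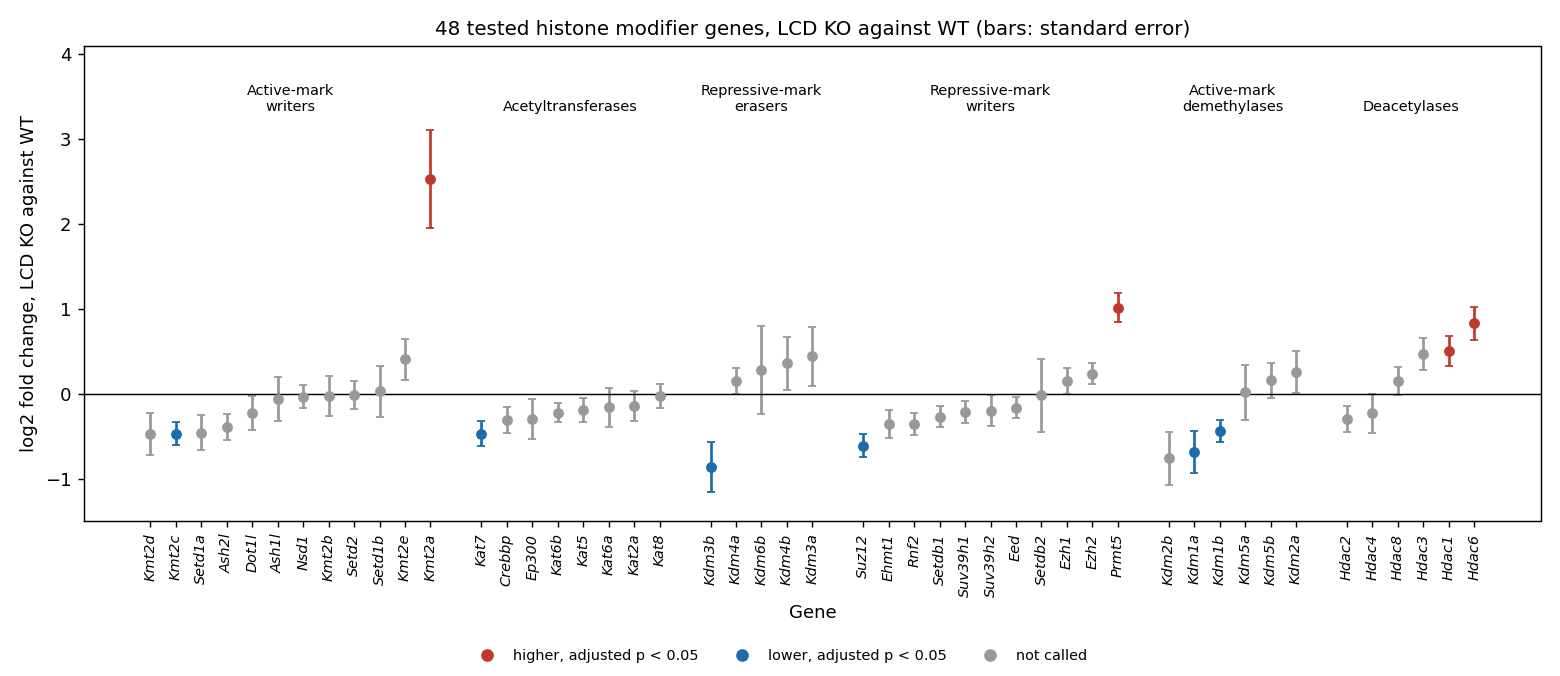
Log2 fold change of LCD KO against WT (vertical axis) for each of the 48 tested genes, grouped by role, with bars of 1 standard error. Red points passed the test as higher (4 genes), blue points as lower (6 genes) and grey points did not pass, and all 8 acetyltransferases lie below 0, as do 6145 of all 11794 genes tested.

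Among the writers of active marks 1 of 12 genes rose and 1 fell (16.7% called, against 18.3% of all genes). Kmt2a, which encodes the methyltransferase MLL1 that acts on active promoters, was almost silent in WT. Its counts summed to 8 over the 6 WT libraries, with 0 to 3 in each, and to 79 over the 7 LCD KO libraries, with 1 to 29 in each. In CPM, WT ran from 0 to 0.94 with a median of 0.37, and LCD KO from 0.36 to 4.76 with a median of 1.84. A single LCD KO library, replicate 1, lay within the WT range, and in batches 2 and 3 every LCD KO library lay above WT. The rise was 2.53 ± 0.58 on the log2 scale (SE, edgeR adjusted p = 0.000999). Within batches the value was 3.63 in batch 2 and 2.30 in batch 3, and in batch 1 the gene did not pass the filter. Batch 2 held a single WT library, here and for every value within that batch. Kmt2a passed the filter in the fit over all libraries through the groups where it was high. Its calls against WT, here and in the later comparisons, therefore describe those groups and support no count of called genes. The counts given for LCD KO, HD mutant and DKO against WT include it.

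Kmt2c, which encodes the enhancer methyltransferase MLL3, ran from 118 to 335 CPM in WT with a median of 159, and from 66.8 to 293 CPM in LCD KO with a median of 152. The ranges overlapped over all libraries, and batch 2 was high in both groups. Within each batch every LCD KO library lay below every WT library. The log2 fold change was -0.47 ± 0.14 (edgeR adjusted p = 0.0175), and within batches it was -0.67, -0.23 and -0.30. The other 10 writers did not pass the test. Their log2 fold changes ran from -0.47 for Kmt2d to 0.41 for Kmt2e, and that of Setd2, the writer of the mark over gene bodies, was -0.01 ± 0.17.

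**Figure D2:**
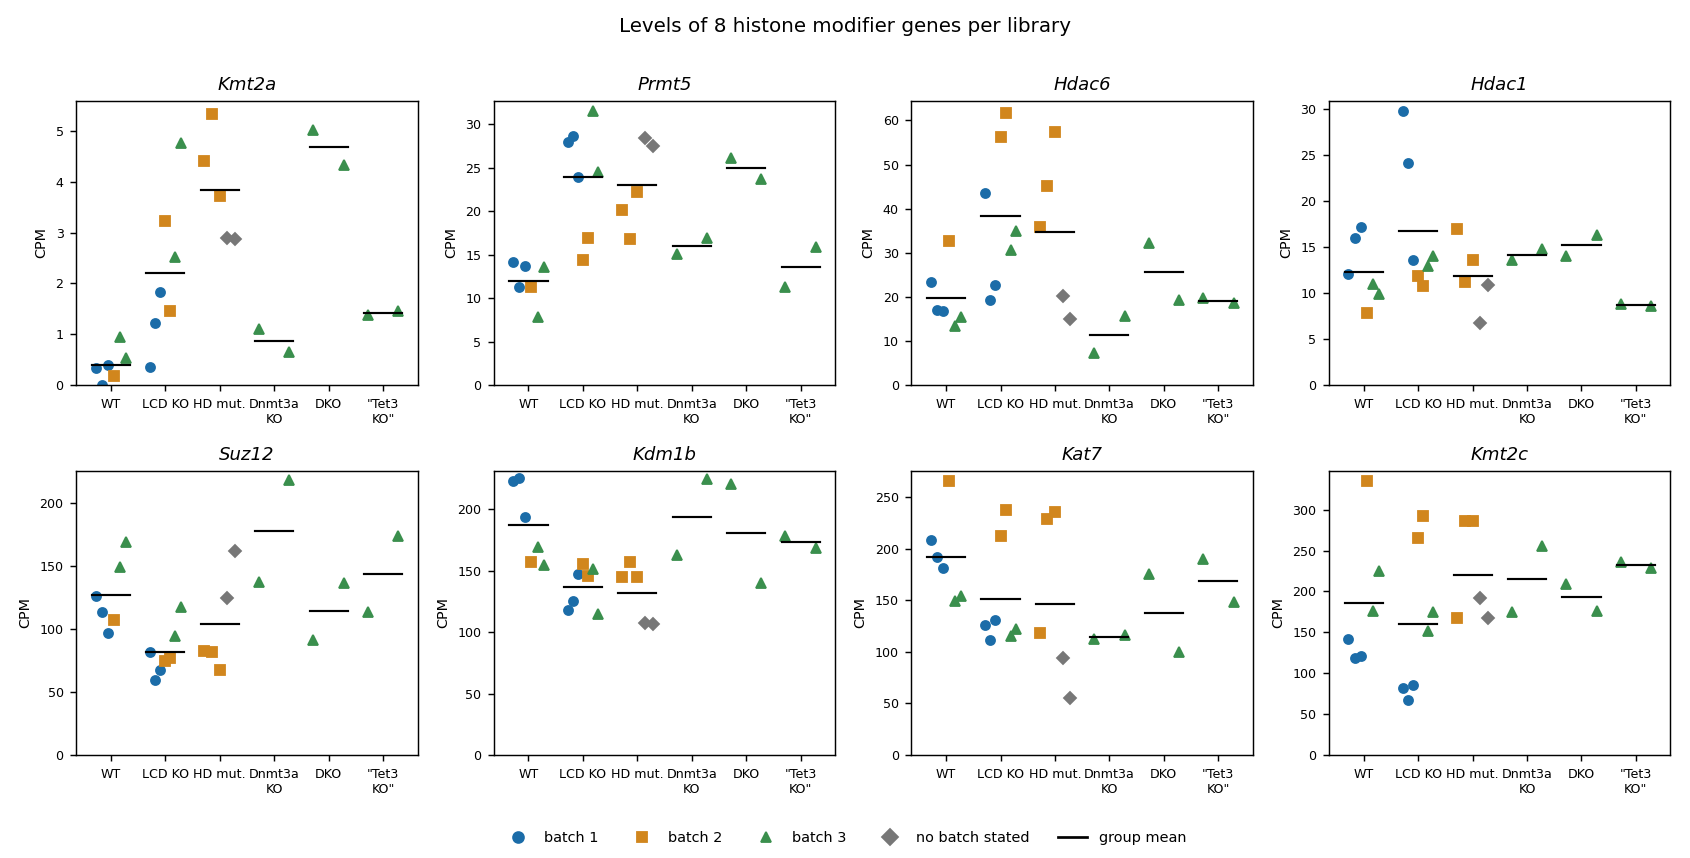
CPM of 8 genes called in LCD KO against WT (vertical axis, linear from 0), by group, with 1 point per library, shape and colour giving the batch, and a line at the group mean. Prmt5 shows all 7 LCD KO libraries above all 6 WT libraries, and Kmt2c shows the batch 2 libraries of both groups at 265 CPM and above.

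All 8 tested acetyltransferases had a negative log2 fold change in LCD KO, from -0.47 to -0.03. The test was passed by 1 of them (12.5%, against 18.3% of all genes). Over all genes 6145 of 11794 were negative. Against the same WT libraries 8 of the 8 acetyltransferases were negative in Dnmt3a KO and 7 of 8 in HD mutant and in DKO. In the libraries labelled Tet3 KO the sign went the other way, with 7 of 8 positive. Kat7, the catalytic subunit of the HBO1 complex, ran from 149.7 to 265 CPM in WT with a median of 187, and from 112 to 238 CPM in LCD KO with a median of 126. The highest libraries of both groups were those of batch 2, and within each batch all LCD KO libraries lay below WT. The fall was 0.47 ± 0.15 on the log2 scale (edgeR adjusted p = 0.0253). The value was -0.63 in batch 1, -0.21 in batch 2 and -0.36 in batch 3, and the call was lost without LCD KO 1, LCD KO 2 or WT 1 (adjusted p 0.0511 to 0.0594). Crebbp and Ep300, the paralogous coactivator acetyltransferases, were at -0.31 ± 0.15 and -0.30 ± 0.24 and did not pass the test.

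Of the 5 tested erasers of repressive methylation, Kdm3b was called (20%, against 18.3% of all genes). This gene encodes a demethylase of the lysine mark laid by the Ehmt enzymes, and it was weakly expressed, at 3.45 to 9.84 CPM in WT (median 5.95) and 0.82 to 6.76 CPM in LCD KO (median 4.04). The ranges overlapped, but within each batch LCD KO lay below WT. The log2 fold change was -0.87 ± 0.29 (edgeR adjusted p = 0.0377), and it was -0.57 in batch 2 and -0.78 in batch 3, where it could be fitted. The call held in 5 of 13 fits that left out a single library, with adjusted p up to 0.0935 in the others. Kdm6b, an eraser of the Polycomb mark, was at 0.28 ± 0.52, with the largest standard error of the genes not called.

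The writers of repressive marks held the smallest adjusted p of the list. Prmt5, which places symmetric dimethyl marks on histone arginines and on spliceosomal proteins, ran from 7.84 to 14.2 CPM in WT with a median of 12.5, and from 14.4 to 31.5 CPM in LCD KO with a median of 24.5. Every LCD KO library lay above every WT library, the one such case among the 48 genes, against 1.39% of all genes. The rise was 1.01 ± 0.17 on the log2 scale (edgeR adjusted p = 0.000172), with 1.07, 0.50 and 1.36 within batches 1, 2 and 3. Suz12, a core subunit of Polycomb repressive complex 2, ran from 96.7 to 168 CPM in WT with a median of 119.6, and from 59.4 to 117 CPM in LCD KO with a median of 77.1. The ranges overlapped through LCD KO 7, at 117 CPM, and within each batch LCD KO lay below WT. The fall was 0.61 ± 0.14 (edgeR adjusted p = 0.00297), with -0.66, -0.47 and -0.59 within batches. Its partners Ezh2 and Eed did not pass the test, at 0.24 ± 0.12 and -0.17 ± 0.13, and neither did Rnf2, the ubiquitin ligase of Polycomb repressive complex 1, at -0.36 ± 0.13 (adjusted p = 0.0565). The 9 writers not called ran from -0.36 to 0.24.

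Both lysine demethylases of the Kdm1 family fell, the 2 called of 6 demethylases of active marks (33.3%, against 18.3% of all genes). Kdm1b, named above for its place in maternal imprinting, ran from 155 to 226 CPM in WT with a median of 181, and from 115 to 156 CPM in LCD KO with a median of 146. The groups touched at 155 to 156 CPM and were apart within each batch. The fall was 0.44 ± 0.13 (edgeR adjusted p = 0.0192). It was 0.69 in batch 1 alone, and the log2 fold change was -0.02 in batch 2 and -0.29 in batch 3, so the batches differed in size. The call was lost without LCD KO 1 (adjusted p = 0.0558). Kdm1a, its paralogue, ran from 7.25 to 36.9 CPM in WT (median 15.2) and from 3.28 to 24.3 CPM in LCD KO (median 11.03). The groups overlapped in batches 1 and 3 as well. Its log2 fold change was -0.69 ± 0.25 (edgeR adjusted p = 0.0495), with -0.61, -0.69 and -0.72 within batches, and the call held in 3 of 13 fits that left out a library. Kdm2b, which targets the variant Polycomb complex to unmethylated CG islands, had the lowest value of the genes not called, -0.76 ± 0.31 (adjusted p = 0.0991), although its LCD KO libraries lay below WT in each batch.

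Of the 6 deacetylases 2 rose and none fell (33.3% called, against 18.3% of all genes), a share that rests on 6 genes. Hdac6, a largely cytoplasmic enzyme that acts on tubulin, ran from 13.5 to 32.7 CPM in WT with a median of 16.8, and from 19.3 to 61.7 CPM in LCD KO with a median of 34.96. The groups overlapped in batch 1 and were apart in batches 2 and 3. The rise was 0.83 ± 0.20 (edgeR adjusted p = 0.00439), with 0.61, 0.88 and 1.17 within batches. Hdac1, a nuclear class I enzyme, ran from 7.87 to 17.2 CPM in WT (median 11.5) and from 10.8 to 29.7 CPM in LCD KO (median 13.6). Its highest libraries were LCD KO 1 and 2, at 29.7 and 24.2 CPM, and the groups overlapped in batch 1. The log2 fold change was 0.51 ± 0.18 (edgeR adjusted p = 0.0491), and the call held in 1 of 13 fits that left out a library. Hdac3 had the highest value of the genes not called, 0.47 ± 0.19 (adjusted p = 0.0820), and Hdac2 was at -0.30 ± 0.15.

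In HD mutant oocytes 3 of the 48 genes were called against WT, 6.25% against 7.83% of all genes. Kmt2a is among the 3, and its call supports no count, as given above. Kmt2a and Prmt5 rose, as in the comparison of LCD KO with the same WT libraries, and Setdb1 fell. Kmt2a stood at 4.40, 5.32, 3.71, 2.89 and 2.87 CPM in HD mutant 1 to 5, from 28, 36, 30, 6 and 5 counts, all above the highest WT library at 0.94 CPM. The rise was 3.54 ± 0.69 over HD mutant 1 to 3 (edgeR adjusted p = 0.00067). Prmt5 stood at 20.1, 16.9, 22.2, 28.4 and 27.5 CPM, all above WT, and rose by 1.17 ± 0.26 (edgeR adjusted p = 0.00554). In batch 2, the batch these libraries share with WT 4, the values were 4.55 for Kmt2a and 0.83 for Prmt5, and neither was called there (adjusted p = 0.123 and 0.275). WT 4 held 1 count of Kmt2a. The call of Prmt5 was lost with no batch term, at 0.72 ± 0.25 (adjusted p = 0.101).

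Setdb1, which methylates histone H3 at silenced repeats, stood at 199, 270 and 263 CPM in HD mutant 1 to 3 and at 140 and 89.5 CPM in HD mutant 4 and 5. WT 4, of the same batch, stood at 357 CPM, and the other WT libraries at 118 to 258 CPM, so the groups overlapped over all libraries. The log2 fold change was -0.71 ± 0.20 (edgeR adjusted p = 0.0251). It was 0.13 with no batch term, a reversed sign, and -0.59 ± 0.20 (adjusted p = 0.110) without HD mutant 1, and with scaling by library size only it was -0.65 ± 0.21 (adjusted p = 0.0557). HD mutant 1 stood apart in batch 2: it lay outside the range of the other 5 libraries for 32 of the 48 genes, or 66.7% against 59.7% of all genes. Without it 2 of the 48 members and 384 of 11743 genes (3.27%) were called, against 923 with it. Kmt2a then rose by 3.55 ± 0.74 (adjusted p = 0.00158) and Prmt5 by 1.16 ± 0.28 (adjusted p = 0.0142). Between HD mutant and LCD KO 0 of the 48 genes were called, against 2.08% of all genes. At an unadjusted p below 0.05 there were 4, against 1446 of all 11794 genes, and DESeq2 called 0, against 2.86% of all genes.

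The Dnmt3a and double knockouts were compared with WT and with each other. Against WT, Dnmt3a KO had 0 called genes (0.755% of all genes). At an unadjusted p below 0.05 there were 2, against 1531 of all 11794 genes, and DESeq2 called 0, against 1.57% of all genes. DKO had 2 called genes, Kmt2a and Prmt5, which is 4.17% against 3.79% of all genes. The call of Kmt2a supports no count here either, so nothing is read from that share. Kmt2a stood at 5.02 and 4.34 CPM in DKO, from 20 and 13 counts, and at 1.10 and 0.64 CPM in Dnmt3a KO, from 3 counts in each library. Both DKO libraries lay above all WT libraries, whereas 1 Dnmt3a KO library lay within the WT range and 1 above it. The log2 fold change against WT was 2.81 ± 0.69 in DKO (edgeR adjusted p = 0.00877) and 0.34 ± 0.85 in Dnmt3a KO (adjusted p = 0.891), and it was 2.47 ± 0.75 between the 2 knockouts (adjusted p = 0.0590). Prmt5 stood at 26.1 and 23.7 CPM in DKO and at 15.0 and 16.9 CPM in Dnmt3a KO, all above the highest WT library at 14.2 CPM. It rose by 0.998 ± 0.271 in DKO against WT (edgeR adjusted p = 0.0328) and was at 0.36 ± 0.28 in Dnmt3a KO (adjusted p = 0.621).

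On leaving out each of 8 libraries in turn, Kmt2a in DKO ran from 2.61 to 3.07 and kept its call in 7 fits, losing it without DKO 1 (adjusted p = 0.0769). Prmt5 ran from 0.76 to 1.09 and kept its call in 3, losing it without DKO 1, DKO 2, WT 2, WT 5 or WT 6 (adjusted p up to 0.205). A lone DKO library was assumed in these fits to vary like the other groups. Of the 48 genes, 0 were called between DKO and Dnmt3a KO, a pair of groups with Cre, against 1.99% of all genes. There were 5 at an unadjusted p below 0.05, against 1809 of all 11794 genes, and DESeq2 called 0, against 3.24% of all genes. Between DKO and LCD KO 0 were called (0.314% of all genes), and 0 by DESeq2 (0.61% of all genes). At an unadjusted p below 0.05 there was 1, against 910 of all 11794 genes. The test of whether the effect of domain removal differed with and without Dnmt3a called 0 of the 48 genes and 0.0678% of all genes. It had 4 genes at an unadjusted p below 0.05, against 779 of all 11794 genes, and DESeq2 called 0, against 0.28% of all genes. For Kmt2a that difference of differences was -0.06 ± 0.94 and for Prmt5 it was -0.38 ± 0.34.

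The libraries labelled Tet3 KO had 0 called genes against WT (1.37% of all genes). At an unadjusted p below 0.05 there were 0, against 1092 of all 11794 genes, and DESeq2 called 0, against 1.98% of all genes. Kmt2a stood at 1.38 and 1.46 CPM, from 6 counts in each library, above the highest WT library at 0.94 CPM. Prmt5, at 11.3 and 15.9 CPM, overlapped WT in these libraries. LCD KO differed from them in 2 of the 48 genes, or 4.17% against 7.59% of all genes. Ash2l, a core subunit shared by the Kmt2 and Setd1 complexes, stood at 84.2 and 83.9 CPM in the libraries labelled Tet3 KO. It ran from 14.9 to 50.9 CPM in LCD KO, with a median of 38.2, and from 25.9 to 63.1 CPM in WT, with a median of 37.8. All LCD KO libraries lay below the libraries labelled Tet3 KO, and all WT libraries did so too. The log2 fold change of LCD KO against them was -0.84 ± 0.23 (edgeR adjusted p = 0.0224), and that of Prmt5 was 0.89 ± 0.27 (adjusted p = 0.0450). Without the first or the second library labelled Tet3 KO, Ash2l was at -0.84 in each fit (adjusted p = 0.133 and 0.136), and Prmt5 at 0.66 and 1.15 (adjusted p = 0.368 and 0.103). Neither call was kept in these fits, in which the lone library was assumed to vary like the other groups. Ash2l kept its call in the 7 fits without an LCD KO library, and Prmt5 in 1 of them.

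**Figure D3:**
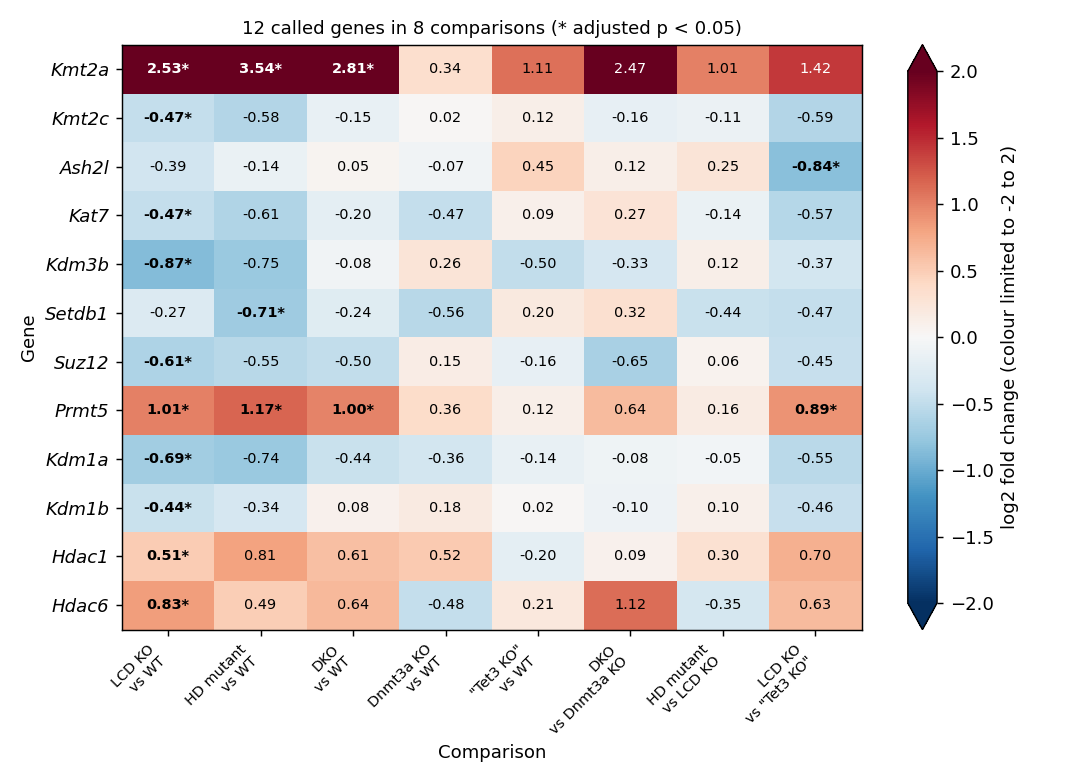
Log2 fold change (number and colour, the colour limited to -2 to 2) of the 12 genes called in at least 1 comparison (rows) in 8 comparisons (columns), with an asterisk where the adjusted p was below 0.05. Prmt5 and Kmt2a carry an asterisk in LCD KO, HD mutant and DKO against WT, comparisons that share the WT libraries, and no gene does in Dnmt3a KO against WT.

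Across the 10 comparisons 12 of the 48 genes were called at least once and 36 in none. LCD KO, HD mutant and DKO were compared with the same WT libraries, so their values are only set side by side, in that order. Suz12 was at -0.61, -0.55 and -0.50, and Kdm1b at -0.44, -0.34 and 0.08. Hdac6 was at 0.83, 0.49 and 0.64, and Hdac1 at 0.51, 0.81 and 0.61. In each set the first value passed the test and the other two did not. Over all 48 genes log2 fold changes ran from -1.14 to 3.54 in HD mutant, from -0.60 to 2.81 in DKO and from -0.58 to 1.38 in Dnmt3a KO, each against WT.

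Several of these genes had levels that went with the batch. In the 3 WT and LCD KO libraries of batch 2, 13 of the 48 genes lay above, and 4 below, all 10 such libraries of batches 1 and 3, which is 27.1% and 8.33% against 15.6% and 10.8% of all genes. Kdm2b stood at 216 to 423 CPM in batch 2 and at 22.1 to 85.6 CPM in the others, a ratio of means of 6.85. For Ep300 the ranges were 41.7 to 52.1 and 5.07 to 16.7 CPM. HD mutant 1, labelled batch 2, held 44.8 CPM of Kdm2b, against 241 and 265 CPM in HD mutant 2 and 3. For 11 of the 17 genes that set batch 2 apart, HD mutant 1 lay within the range of batches 1 and 3, as it did for 58.3% of the 3120 genes of the whole table that set batch 2 apart. The 4 genes below were Ash1l, Eed, Kat8 and Suv39h1. Eed stood at 103 to 118 CPM in batch 2 and at 187 to 288 CPM in the others. The part of batch in the results was tested only through the batch term and the fits within batches given above.

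**Figure D4:**
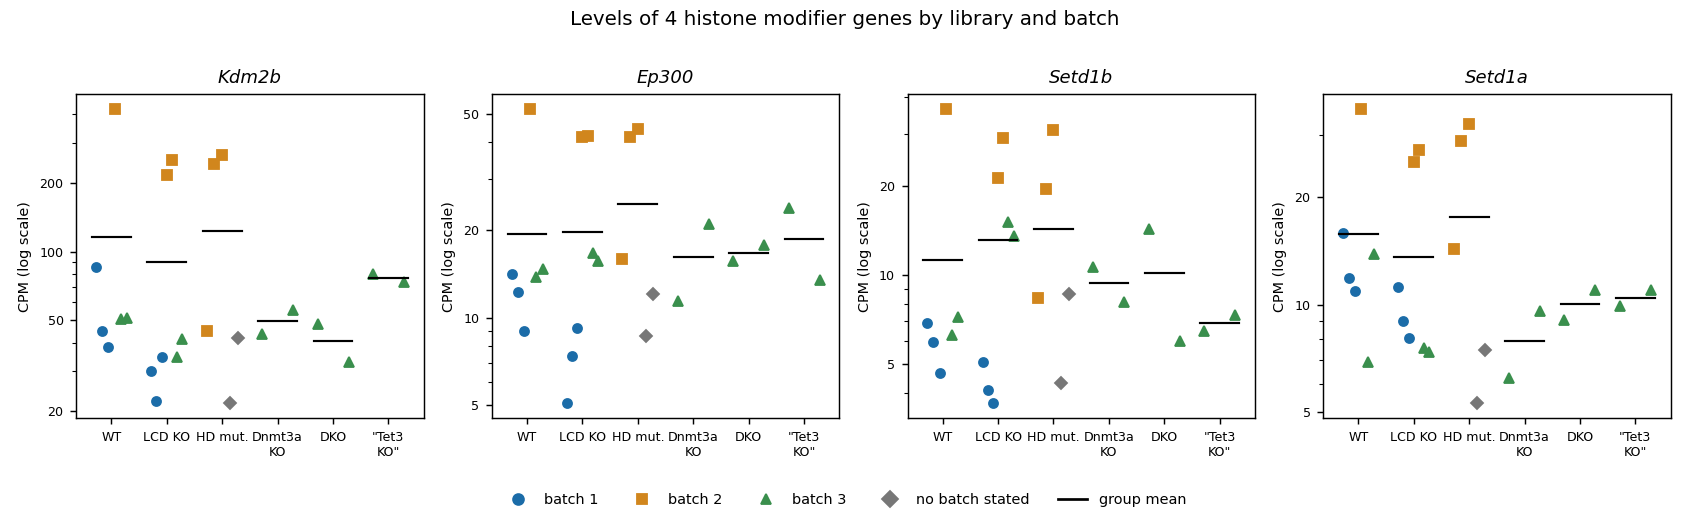
CPM (log axis) of Kdm2b, Ep300, Setd1b and Setd1a by group, with 1 point per library, shape and colour giving the batch, and a line at the group mean. The WT and LCD KO libraries of batch 2 (orange squares) lie above those of the other batches for each gene, and 1 HD mutant library of batch 2 lies low, at 44.8 CPM for Kdm2b.

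Batch 3 held 2 libraries of each of 5 groups, and Kdm6b separated them within every group. The library with the lower replicate number held 46.1 CPM in WT, 52.6 in LCD KO, 55.8 in Dnmt3a KO, 53.0 in DKO and 52.1 in the pair labelled Tet3 KO. The library with the higher number held 239, 280, 285, 270 and 189 CPM in the same order. The 2 sets did not overlap, and the median ratio within a group was 5.04. HD mutant 4 and 5, with no stated batch, stood at 46.2 and 214 CPM. In batch 1 Kdm6b ran from 194 to 259 CPM in WT and from 289 to 335 CPM in LCD KO, and in batch 2 from 97.7 to 130 CPM over both groups. Higher levels in the higher-numbered library of all 5 groups were found for 12 of the 48 genes, or 25% against 8.55% of all genes. Suv39h2 and Suz12 were among them, with median ratios of 1.62 and 1.49. Eed and Kat8 were lower in all 5, or 4.17% against 6.86% of all genes. The labels name no difference between the numbered libraries, and its part in the results was examined only through a fit with batch 3 split in this way. That fit called 11 of the 48 genes in LCD KO and 4 in HD mutant against WT, where it called 20.4% and 9.78% of all genes. It called 0 in Dnmt3a KO, 2 in DKO and 0 in the libraries labelled Tet3 KO, against 1.49%, 4.65% and 1.56% of all genes.

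**Figure D5:**
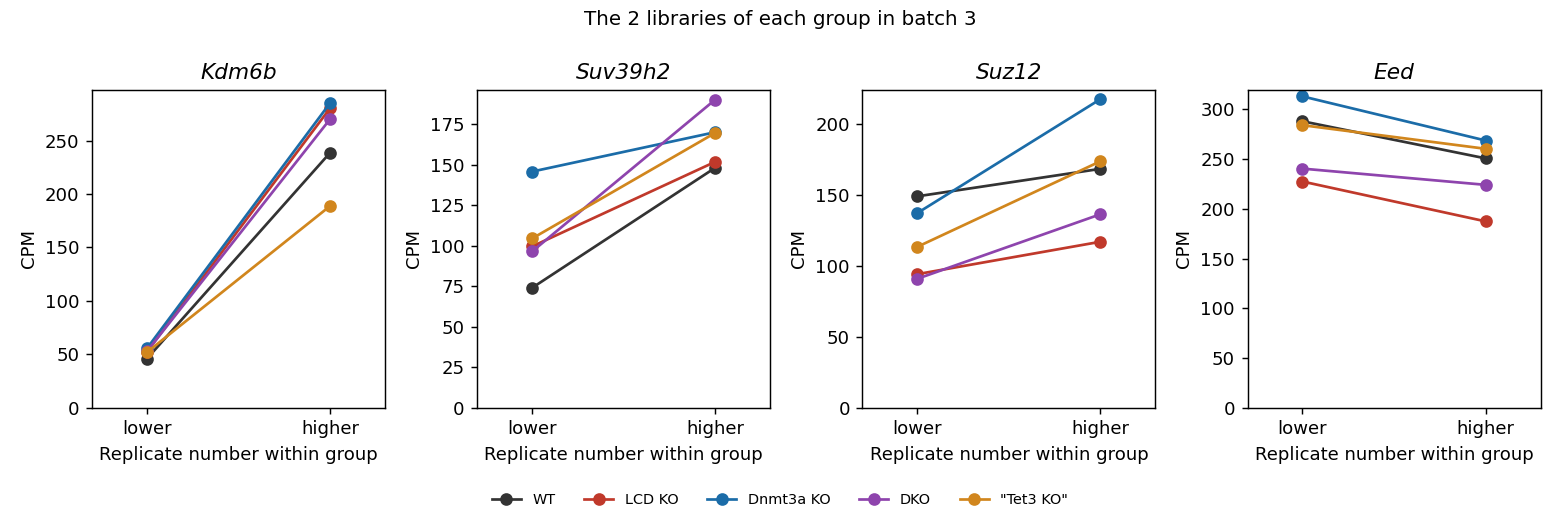
CPM (vertical axis, linear from 0) of Kdm6b, Suv39h2, Suz12 and Eed in the library of lower and of higher replicate number (horizontal axis) of each batch 3 group, joined by a line per group. Kdm6b runs from 46.1 to 55.8 CPM on the left and from 189 to 285 CPM on the right, and Eed falls in all 5 groups.

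A wider list of 117 other genes of histone modification, holding cofactors, readers and further enzymes, was counted for comparison, and 102 of them were tested. In LCD KO against WT 0 rose and 12 fell, which is 11.8% against 18.3% of all genes, or, for falls alone, against 9.44%. The largest fall was in Phf19, an accessory subunit of Polycomb repressive complex 2, with -1.29 ± 0.34 (edgeR adjusted p = 0.00687). Phf19 ran from 3.14 to 14.1 CPM in WT with a median of 4.02, and from 0.41 to 3.81 CPM in LCD KO with a median of 2.84, so the ranges overlapped. Phc3, of Polycomb repressive complex 1, was at -0.77 ± 0.21 and the deacetylase Sirt1 at -0.65 ± 0.19. Rbbp5, a core subunit of the Kmt2 complexes, was at -0.64 ± 0.21, and Smyd3, a lysine methyltransferase, at -0.64 ± 0.15. Smyd3 ran from 39.9 to 90.4 CPM in WT and from 32.9 to 61.9 CPM in LCD KO. In HD mutant against WT 0 of the wider list rose and 8 fell, or 7.84%, where 3.75% of all genes fell. LCD KO against the libraries labelled Tet3 KO gave 1 rise and 3 falls, or 3.92% against 7.59% of all genes. No gene of the wider list was called in the other comparisons.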

How the data were processed

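The values are raw counts of reads per gene symbol, as the authors deposited them, with no normalization. Per the submitters' processing notes, the tools were Trim Galore 0.5.0, HISAT2 2.1.0 and featureCounts 1.6.4, on mm9. The annotation and strand setting are not given in the sources used here. Counts of overlapping, antisense and near-identical genes are therefore uncertain. The 92 ERCC features, with 1 count, were left out. Pools are called biological replicates in the labels, which name no separate animals, so p-values measure the spread between pools.

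Differences were tested with edgeR 4.0.16 (quasi-likelihood, TMM, robust, filterByExpr by group, a model of group plus batch) in R 4.3.3, on the 22 libraries whose batch is known, and a Benjamini-Hochberg adjusted p below 0.05 over 11794 genes is a call. All adjusted p-values are from this test unless DESeq2 1.42.0 is named. Standard errors are from the information matrix of that fit. The script was checked on simulated counts. CPM used TMM factors over 24 distinct libraries. Same-group pairs of those libraries differed by at least 3.36 in chi-square per degree of freedom. Lengths are merged exons of GENCODE M21 (GRCm38). Floors cover counting error only. The genes, the wider list and the rule for naming genes (every called member by library, and the 5 largest changes each way of the wider list) were chosen with earlier results of these data known. Alternatives were another normalization, test, filter or batch term, single batches, a replicate block and each library left out.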

Additional observations from a re-analysis of the deposited data

Results flagged for a closer look

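Kdm2b stood at 423 CPM in WT 4, the 1 WT library of batch 2, whereas the other 5 WT libraries held 38.2 to 85.6 CPM. The gap to the nearest of them was 0.877 of the group's range, above the critical value of 0.625. The levels of 14 genes, the 12 called ones with Kdm6b and Kdm2b, were examined in this way in 42 groups of libraries, and 1 was marked. Chance marks about 1 in 20 where the libraries of a group are alike. That rate does not apply to WT, which pools batches and has 1 library in batch 2. LCD KO 4 and 5, of the same batch, stood at 216 and 252 CPM of Kdm2b.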

How the results depend on the processing

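For LCD KO against WT, the 10 called members became 5 with library size only, 2 (Kmt2a and Prmt5) with no batch term, and 0 in batch 2 or batch 3 alone, each of which has fewer libraries. DESeq2, no filter, batch 1 alone and batch 3 split by replicate number (an alternative chosen after seeing the data) each called 11. These fits called 20.9%, 12.4%, 30.3% and 20.4% of all genes, library size only 18.1% and no batch term 4.61%. Batch 2 alone called 0.0946% of all genes and batch 3 alone 0.789%. Leaving out a library gave 5 to 11, with 5 without LCD KO 1 and 6 without LCD KO 2 or WT 1. The 13 such fits called 14.3% to 19.6% of all genes. For HD mutant against WT, the 3 became 6 with no filter and 0 in batch 2 alone, with 2 to 4 on leaving out a library, and the call of Prmt5 there was also lost with a replicate block. With no filter 7.14% of all genes were called in that comparison, and in batch 2 alone 0.315%. The fits that left out a library called 3.27% to 9.46% of all genes there. Setdb1 turned there from -0.71 to 0.13 with no batch term. For DKO against WT, the 2 became 0 in batch 3 alone and 0 to 2 on leaving out a library. For LCD KO against the libraries labelled Tet3 KO, the 2 became 1 with no batch term, 1 in batch 3 alone and 0 to 2 on leaving out a library. Over all genes, 1.6% were called for DKO against WT in batch 3 alone. For LCD KO against the libraries labelled Tet3 KO it was 3.12% with no batch term and 4.02% in batch 3 alone. DKO against Dnmt3a KO went from 0 to 1 with no filter, the gene being Hdac6, where 2.34% of all genes were called. No other called member changed sign under any alternative run. Prmt5, Hdac6, Suz12 and Kmt2c kept their call in LCD KO in all 13 fits without a library. Kmt2a did so too, but its calls only describe the groups that carried it past the filter, as given above. The cause of these shifts was not tested.

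A replicate block in place of batch gave 4 members for LCD KO against WT, where it called 6.94% of all genes. With the share of all genes in brackets, it gave 27 for HD mutant against WT (29.5%) and 23 for HD mutant against LCD KO (25.8%). It gave 8 for Dnmt3a KO (12.2%) and 8 for DKO (16.6%) against WT, and 9 for DKO against LCD KO (13.5%). For the libraries labelled Tet3 KO against WT it gave 6 (9.86%), and for LCD KO against them 12 (18.3%). Setdb1 was at 0.18 in HD mutant. The numbers were not taken to pair the libraries, since the labels tie no number to a shared day or animal and same-numbered libraries correlated by -0.32 to 0.27 in their deviations from group means. The lowest value is LCD KO 6 with WT 6, the lower- and the higher-numbered library of their groups in batch 3, and pairs of lower-numbered libraries there correlated by -0.003 to 0.32. With batch 3 split in that order, 176 genes were called in Dnmt3a KO against WT, 333 in DKO against Dnmt3a KO and 549 in DKO against WT. Over all genes, calls ran from 12 (batch 2 alone) to 2851 (batch 1 alone) around 2162 for LCD KO against WT, and from 40 (batch 2 alone) to 3477 (replicate block) around 923 for HD mutant against WT. They ran from 92 to 3048 around 245 for HD mutant against LCD KO, from 164 to 1961 around 447 for DKO against WT, and from 260 to 2157 around 895 for LCD KO against the libraries labelled Tet3 KO. For Dnmt3a KO against WT they ran from 26 to 1437 around 89, for DKO against Dnmt3a KO from 20 to 449 around 235, for DKO against LCD KO from 12 to 1588 around 37, for the libraries labelled Tet3 KO against WT from 55 to 1163 around 162, and for the difference of differences from 2 to 70 around 8.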
